A study of Mus musculus with 156 samples.

Results

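The 10 genes described here encode chaperones and folding enzymes of the endoplasmic reticulum (ER) and regulators of the unfolded protein response. They were chosen by gene symbol (Hspa5, Hsp90b1, Pdia4, Pdia6, Calr, Sdf2l1, Dnajb9, Xbp1, Herpud1 and Manf) from the 40914 genes in the deposited tables. The rule used no measured value, but the list was made with earlier results of these data known. Each symbol matched 1 gene ID. All 10 had a count above 0 in every library and passed the filter on low counts in both time courses, in which 17565 and 18009 genes were tested.

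The study sequenced poly(A) RNA from mouse embryonic stem cells, which renew themselves and can form the tissues of the embryo, to follow what Firre, a nuclear long noncoding RNA, does to gene expression. The labels give 4 lines, and each genotype is 1 line. The KO transgene line is labelled "Firre KO / Firre inducible transgene", the KO control line "Firre KO", the WT transgene line "Firre inducible transgene" and the WT control line "WT". All were grown with serum, LIF (a cytokine) and the kinase inhibitors PD0325901 and CHIR99021, and the labels list doxycycline, the inducing drug, at 1 ng/µL for every library, those of 0 min included, so the control lines carry the drug too. The long course has 3 libraries per line at 0, 720, 1440, 2880 and 5760 min. The short course has 2 libraries per line every 30 min to 330 min. The labels do not say whether replicates are separate cultures, so p-values measure the spread between these libraries, which may be technical.

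Long course libraries held 18961799 to 47948630 counts, and short course libraries 19013652 to 37195019. Firre matched the labels: at 720 min of the long course it averaged 49.4 TPM (a level scaled for transcript length and library size) in the KO transgene line against 0.736 in the KO control line, and 113 in the WT transgene line against 29.7 in the WT control line. The 10 pluripotency markers were all present (Pou5f1 791 to 1252 TPM), and their summed level was 7245 to 10770 TPM over all libraries. Markers of other cell types were low: summed over 10 genes, primitive endoderm, a secretory cell type, reached 17.9 to 48.7 TPM (Foxa2 at 0 in some libraries), and 9 fibroblast genes reached 2.68 to 11.9 TPM. The 8 trophoblast markers summed to 17.5 to 112.5 TPM in KO transgene libraries of the long course, against 15.5 to 52.7 in KO control, and to 19.2 to 46.8 in WT transgene against 21.02 to 42.4 in WT control. Their part in the results was not tested, and in bulk RNA fewer cells of a type and less RNA per cell cannot be told apart. One library stands apart, WT control replicate 3 at 1440 min of the long course, whose counts differed from its replicates with a chi-square per degree of freedom of 57.6 and 59.5, against a median of 4.02 over 108 replicate pairs. The pair of KO control libraries at 180 min of the short course also differed more than other pairs, at 35.7.

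Proteins that enter the secretory route fold in the ER lumen with the help of chaperones, lectins and disulfide isomerases. When unfolded protein accumulates, the membrane sensors IRE1 (gene Ern1), PERK (Eif2ak3) and ATF6 start the unfolded protein response. IRE1 splices the Xbp1 mRNA so that it encodes an active transcription factor, cleaved ATF6 enters the nucleus, and PERK slows translation while raising ATF4. ATF6 and XBP1 bind ER stress response elements in promoters of chaperone genes. The gene-level tables used here add spliced and unspliced Xbp1 RNA together.

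The promoter sequences were searched for elements through which the response is known to act, and are given for the genes on which the results below turn. Windows of 300 bases, 250 before the transcription start and 50 after it (RefSeq, GRCm38.p6), were found for 9 of 10 members, all but Manf. Searched on both strands, the ER stress response element (CCAAT and CCACG with any 9 bases between them) was in 4 of these 9 windows, against 0.119% of 32851 windows of all genes. Capitals mark that element, in either orientation, in the first 4 sequences. They come from chr2:34771840-34772139 (plus strand, Hspa5), chr10:86705395-86705694 (minus strand, Hsp90b1, with 2 copies), chr12:17266339-17266638 (plus strand, Pdia6) and chr8:84846882-84847181 (minus strand, Calr).

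Hspa5: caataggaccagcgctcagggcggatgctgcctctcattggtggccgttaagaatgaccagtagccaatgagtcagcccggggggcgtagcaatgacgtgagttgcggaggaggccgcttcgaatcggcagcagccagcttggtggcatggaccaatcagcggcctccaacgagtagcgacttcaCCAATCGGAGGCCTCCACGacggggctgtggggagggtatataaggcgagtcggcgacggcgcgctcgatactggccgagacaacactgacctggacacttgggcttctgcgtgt

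Hsp90b1: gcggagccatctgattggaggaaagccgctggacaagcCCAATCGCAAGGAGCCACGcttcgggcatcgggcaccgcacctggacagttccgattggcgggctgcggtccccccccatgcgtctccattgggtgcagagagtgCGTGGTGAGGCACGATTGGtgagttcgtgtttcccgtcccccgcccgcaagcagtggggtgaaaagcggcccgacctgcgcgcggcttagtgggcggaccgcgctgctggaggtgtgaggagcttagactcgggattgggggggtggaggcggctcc

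Pdia6: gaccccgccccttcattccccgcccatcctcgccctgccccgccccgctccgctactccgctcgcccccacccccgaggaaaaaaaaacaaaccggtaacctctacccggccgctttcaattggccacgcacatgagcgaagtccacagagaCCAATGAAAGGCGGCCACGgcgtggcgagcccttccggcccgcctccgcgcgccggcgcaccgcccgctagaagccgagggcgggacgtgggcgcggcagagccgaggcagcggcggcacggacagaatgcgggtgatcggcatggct

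Calr: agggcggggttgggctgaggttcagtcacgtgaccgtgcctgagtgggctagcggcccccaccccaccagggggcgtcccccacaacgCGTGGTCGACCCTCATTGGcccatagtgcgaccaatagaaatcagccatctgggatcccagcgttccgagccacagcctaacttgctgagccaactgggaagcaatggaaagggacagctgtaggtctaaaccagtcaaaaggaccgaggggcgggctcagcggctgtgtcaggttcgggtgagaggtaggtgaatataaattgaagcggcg

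Herpud1 and Xbp1, the members whose levels changed most, had no match to that element. Neither did Pdia4, Sdf2l1 and Dnajb9, whose windows are not shown. In the Herpud1 window (chr8:94386179-94386478, plus strand) capitals mark the related element ERSE-II (ATTGG and CCACG with any 1 base between them), present in 0.0365% of all windows, and upstream of it, on the opposite strand, TGATGCAA, the core of the element bound by ATF4 and its partners, present in 0.895%. The Xbp1 window (chr11:5520391-5520690, plus strand) held none of the 6 motifs searched, so it has no capitals. These also included TGACGTGG (0 of 9 member windows, 0.676% of all), TGACGTCA (0 of 9, 1.79% of all) and the short site CCACG, which overlaps both ER stress elements (8 of 9, all but Xbp1, and 32.8% of all). A match is a match of letters, not a shown binding site.

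Herpud1: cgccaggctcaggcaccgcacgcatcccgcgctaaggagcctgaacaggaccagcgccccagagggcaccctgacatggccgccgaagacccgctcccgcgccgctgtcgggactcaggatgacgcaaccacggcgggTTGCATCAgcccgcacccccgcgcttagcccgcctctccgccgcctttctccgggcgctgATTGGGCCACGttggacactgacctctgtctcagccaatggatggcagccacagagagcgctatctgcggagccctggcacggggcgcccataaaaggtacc

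Xbp1: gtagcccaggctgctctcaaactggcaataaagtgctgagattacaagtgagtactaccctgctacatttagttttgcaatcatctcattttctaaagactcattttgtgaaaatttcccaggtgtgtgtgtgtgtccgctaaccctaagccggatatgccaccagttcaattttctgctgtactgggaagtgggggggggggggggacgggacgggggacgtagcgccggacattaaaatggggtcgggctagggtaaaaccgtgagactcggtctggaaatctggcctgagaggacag

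Hspa5, which encodes BiP, the main ER chaperone, had the highest level of the 10, with a median of 418 TPM over all libraries (368 to 491). Calr, the lectin chaperone calreticulin, followed at 354 TPM (287 to 416) and Hsp90b1, the ER form of the Hsp90 chaperone, at 341 TPM (285 to 530). Their ranges overlap, so the order of these 3 is not fixed across libraries. Pdia6 and Pdia4, protein disulfide isomerases, had medians of 194 TPM (167 to 243) and 112 TPM (90.4 to 149), and Manf, a secreted factor retained in the ER, lay between them at 135 TPM (109.8 to 178). The regulators and cofactors were far lower: Xbp1 41.2 TPM (30.8 to 78.6), Sdf2l1, a partner of ER co-chaperones, 26.1 TPM (19.5 to 40.9), Dnajb9, a J-domain co-chaperone of BiP, 12.4 TPM (8.63 to 15.5), and Herpud1, a membrane component of ER-associated degradation, 6.44 TPM (3.32 to 17.1). Herpud1 and Xbp1 had the widest ranges relative to their medians. Reads were not separated by strand, and the Manf, Pdia6, Hsp90b1 and Herpud1 loci overlap other annotated genes, so their counts may hold reads of those genes.

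The first question was whether the KO control line differed from the WT control line when no transgene was present. The clearest difference was Xbp1. Xbp1 lies at chr11:5520659-5525893 on the plus strand (mm10). At 0 min of the long course it was at 76.8, 77.5 and 78.6 TPM in KO control libraries, against 48.9, 49.9 and 49.2 TPM in WT control libraries. The groups were far apart, and the log2 fold change from the count fit was 0.66 ± 0.04 (SE; edgeR quasi-likelihood test, adjusted p = 1.05e-26). The short course, a separate set of libraries, gave the same direction at 0 min, with 48.5 and 46.7 TPM in KO control against 32.0 and 36.3 TPM in WT control (log2 fold change 0.48 ± 0.06, edgeR adjusted p = 5.72e-09).

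Among the other 9 members the differences at 0 min of the long course were smaller and had no common direction. Hspa5 was lower in KO control, at 412, 399.9 and 411 TPM against 448, 455 and 442 TPM in WT control (log2 fold change -0.15 ± 0.02). Calr was lower in KO control, at 304, 300.4 and 289.8 TPM against 344, 348 and 347 TPM in WT control (log2 fold change -0.24 ± 0.03). Neither gene's groups overlapped, and edgeR gave adjusted p = 3.21e-07 and 4.73e-11. Hsp90b1 was also lower in KO control (404 against 432 TPM, log2 fold change -0.13 ± 0.03), and so was Dnajb9 (11.6 against 13.3 TPM, log2 fold change -0.20 ± 0.07), a call lost under 4 of 9 alternatives. Sdf2l1 went with Xbp1: 34.4 TPM in KO control against 28.3 TPM in WT control (log2 fold change 0.31 ± 0.06). Pdia4, Pdia6, Herpud1 and Manf did not pass the test. In all, 6 of 10 members passed (2 higher, 4 lower), where 35.1% of all genes tested did (16.5% higher, 18.6% lower). With limma on log2(TPM + 1) in place of counts the number was 4, where 22.6% of all genes passed. In the short course 2 of 10 passed at 0 min, Xbp1 and Herpud1, where 7.51% of all genes did. None of the 5 other members called in the long course passed there, and Herpud1, at 5.10 against 3.99 TPM (log2 fold change 0.39 ± 0.13, edgeR adjusted p = 0.038), was lost under 5 of 8 alternatives. In that comparison 9 of 10 log2 fold changes were above 0, and the lowest was -0.0058. The lower levels of the long course were thus not seen again in the count fit. As ratios of mean TPM, Pdia4, Pdia6, Calr and Manf had the opposite sign to that fit.

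**Figure D1:**
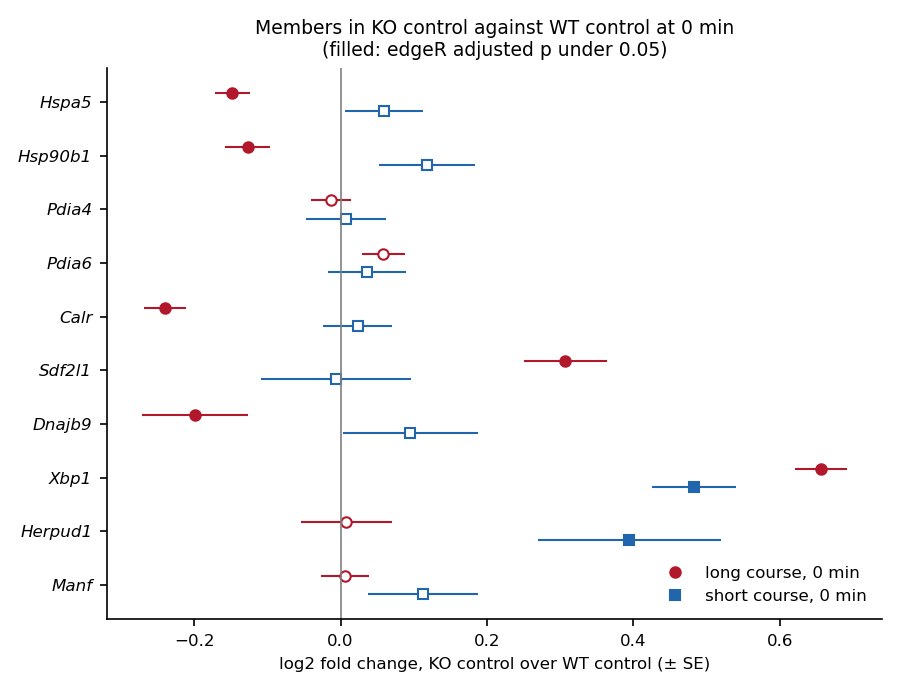
Log2 fold change of each of the 10 members between the KO control and WT control lines at 0 min, from the edgeR fit, with bars of 1 SE, for the long course (3 libraries a line) and the short course (2 libraries a line). Xbp1 stands at 0.66 and 0.48, the largest difference in both courses, while Calr is at -0.24 and Sdf2l1 at 0.31 in the long course.

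The Xbp1 difference held at each later time of the long course, with log2 fold changes of 0.66 (720 min), 0.32 (1440 min), 0.39 (2880 min) and 0.37 (5760 min). Averaged over the 5 times it was 0.48 ± 0.02 (edgeR adjusted p = 9.54e-39). Over the short course it narrowed to 0.07 ± 0.06 at 330 min, with 41.2 TPM in KO control against 40.3 TPM in WT control. Over all times 9 of 10 members passed in the long course (3 higher, 6 lower; of all genes 52.2% passed, 23.6% higher and 28.6% lower) and 7 of 10 in the short course (3 higher, 4 lower, and 4 in all without replicate 2; of all genes 45.7%, 23.7% higher and 22.1% lower). Apart from Xbp1 these averages were small. In the long course they ran from -0.18 (Hsp90b1) to 0.17 (Sdf2l1), and the value of Pdia4, -0.03, turned to 0.01 on the TPM scale. Calr and Hspa5 averaged -0.14 and -0.13 in the long course, but -0.05 and -0.04 in the short course.

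**Figure D2:**
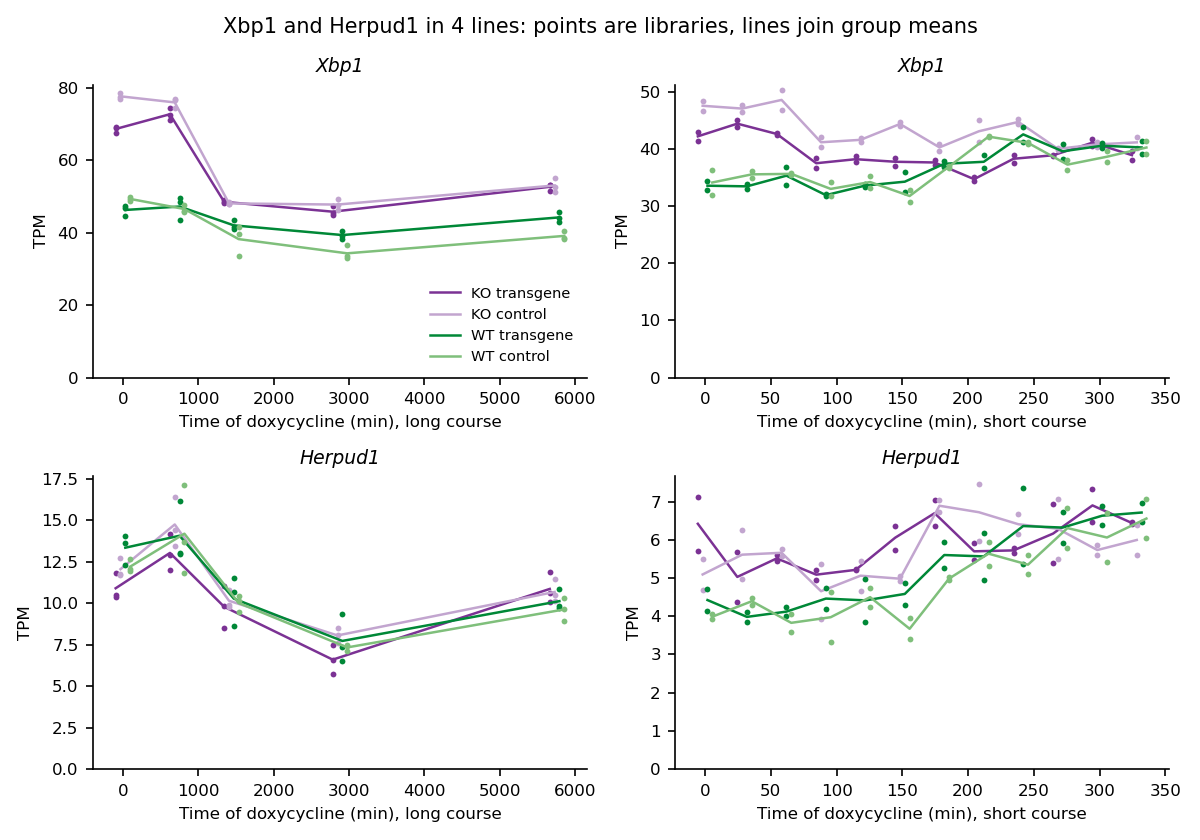
TPM of Xbp1 and Herpud1 in every library (points) with the mean of each line (lines) against time in min, in the long and the short course, for the KO transgene, KO control, WT transgene and WT control lines. Xbp1 starts at 67.6 to 78.6 TPM in KO libraries of the long course against 44.7 to 49.9 in WT libraries, and within the long course Herpud1 is lowest at 2880 min in all 4 lines.

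Time brought the largest changes. Over the long course 9 of 10 members changed in the KO control line (59.6% of all genes tested) and 9 of 10 in the WT control line (54.8%), by an F test of all later times against 0 min. The WT control count was 6 or 7 when replicates were left out in turn. These changes follow time after seeding, medium and doxycycline together, which cannot be told apart in the control lines. The mitochondrial share of counts moved with time as well: at 0, 720, 1440, 2880 and 5760 min it averaged 3.84%, 3.85%, 4.52%, 5.15% and 4.39% in KO control, and 3.55%, 3.90%, 4.36%, 5.16% and 4.34% in WT control. It was highest at 2880 min, and its part in the changes was not tested.

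Herpud1, at chr8:94386438-94395377 on the plus strand (mm10), had the widest swing. It averaged 12.1, 14.8, 10.2, 8.06 and 10.7 TPM at 0, 720, 1440, 2880 and 5760 min in the KO control line, and 12.2, 14.2, 10.02, 7.34 and 9.63 TPM at the same times in the WT control line. At 2880 min it was at 8.49, 8.07 and 7.62 TPM in KO control, against 11.7, 11.7 and 12.7 TPM at 0 min, a log2 fold change of -0.54 ± 0.07. The WT control libraries were at 7.46, 7.42 and 7.13 TPM at 2880 min, against 12.7, 11.9 and 12.0 TPM at 0 min, a log2 fold change of -0.61 ± 0.07. In both lines the libraries of the times did not overlap, and edgeR gave adjusted p = 1.55e-13 and 1.48e-13 for the F test.

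Between 720 and 1440 min Xbp1 fell in both KO lines. In the KO transgene line it was at 49.1, 48.4 and 48.1 TPM at 1440 min, against 74.5, 72.4 and 71.1 TPM at 720 min (log2 fold change -0.42 ± 0.04, edgeR adjusted p = 1.72e-16). In the KO control line it was at 47.9, 48.4 and 48.0 TPM at 1440 min, against 74.4, 77.0 and 76.5 TPM at 720 min (log2 fold change -0.51 ± 0.04, edgeR adjusted p = 3.55e-20). The WT transgene line had 43.6, 41.5 and 40.9 TPM at 1440 min against 48.4, 43.6 and 49.7 TPM at 720 min, libraries that do not overlap by a narrow margin, and the difference did not pass (log2 fold change -0.08 ± 0.04, edgeR adjusted p = 0.0925). In the WT control line it was at 41.5, 39.7 and 33.5 TPM against 45.7, 47.8 and 46.1 TPM (log2 fold change -0.17 ± 0.04, edgeR adjusted p = 0.000518). The lowest of those values is the library that stands apart: without it alone the log2 fold change was -0.12 (edgeR adjusted p = 0.0303), and without replicate 3 at all times the adjusted p was 0.0633.

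Over the same step Herpud1 fell in all 4 lines, by 0.22 in KO transgene, 0.39 in KO control, 0.40 in WT transgene and 0.37 in WT control on the log2 scale, with edgeR adjusted p = 0.00594, 9.18e-07, 5.35e-07 and 1.17e-05. The KO transgene call was lost without replicate 3. Hspa5, Hsp90b1 and Calr rose in both KO lines, while Pdia6 and Dnajb9 passed in neither, and Sdf2l1 fell in KO control (log2 fold change -0.17 ± 0.06). Between the KO lines, Pdia4 and Manf passed in KO transgene alone, and the sign for Pdia4 turned there on the TPM scale. In WT transgene Hsp90b1, Pdia4 and Pdia6 passed as lower, at log2 fold changes of -0.08, -0.10 and -0.13. Those calls were lost under 8, 4 and 1 of 9 alternatives. Hspa5 was at 442, 445 and 439 TPM at 1440 min against 410.0, 398 and 404 TPM at 720 min in the KO transgene line (log2 fold change 0.25 ± 0.02), and at 441, 446 and 446 TPM against 391, 399 and 383 TPM in the KO control line (log2 fold change 0.27 ± 0.02). These groups did not overlap. Calr was higher at 1440 min by 0.33 ± 0.03 in KO transgene, 0.25 ± 0.03 in KO control, 0.10 ± 0.03 in WT transgene and 0.18 ± 0.03 in WT control. The number of members called for this step was 7 in KO transgene (39.4% of all genes tested), 6 in KO control (38.5%), 5 in WT transgene (41.8%) and 6 in WT control (30.5%). In WT transgene it was 3 without any one of the replicates (31.3% to 34% of all genes), and in WT control 3 without replicate 3 (20.6%). In WT control the calls of Hspa5, Pdia4 and Manf had the opposite sign on the TPM scale, where 3 members were called.

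**Figure D3:**
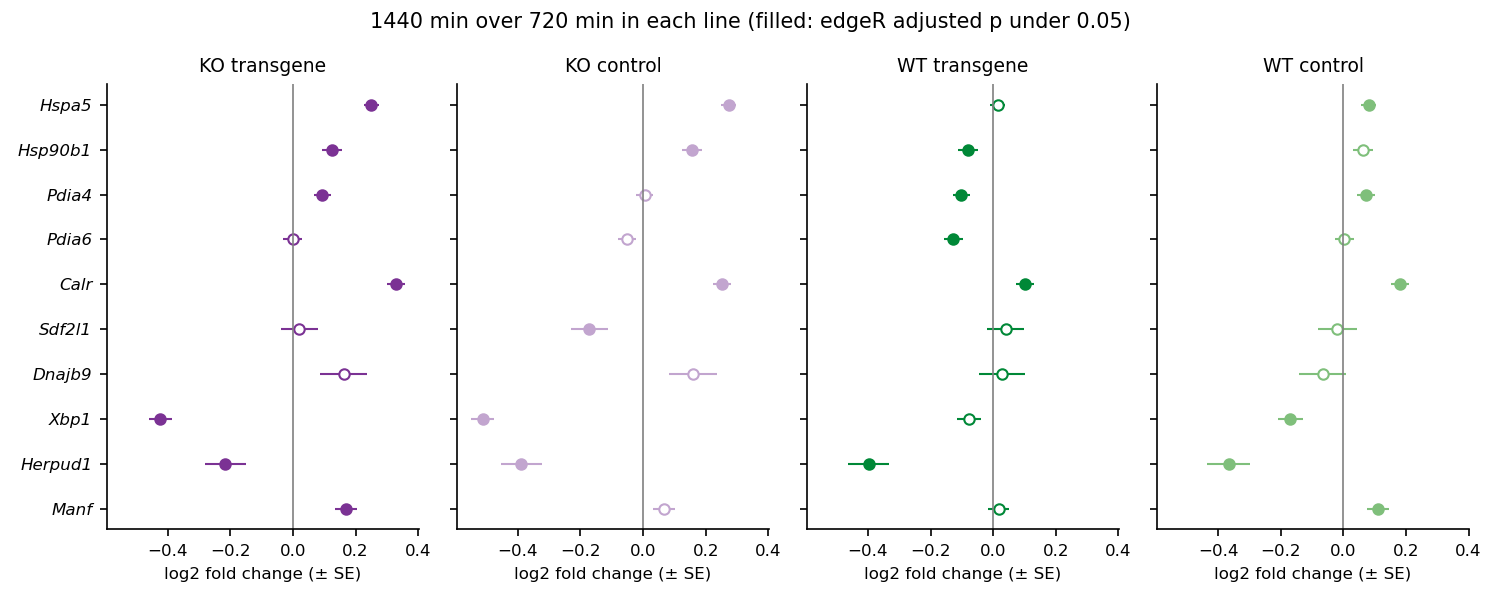
Log2 fold change of each member from 720 to 1440 min in the KO transgene, KO control, WT transgene and WT control lines, from the edgeR fit, with bars of 1 SE (3 libraries a line and time). Xbp1 lies at -0.42 and -0.51 in the KO lines and at -0.08 and -0.17 in the WT lines, while Herpud1 is below 0 in all 4.

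A test of the difference itself, added after these values were seen, compared the time course of the KO control line with that of the WT control line. It called 6 of 10 members in the long course, where 18.8% of all genes tested were called: Xbp1 (edgeR adjusted p = 4.25e-09), Calr (1.28e-05), Hspa5 (0.000128), Pdia6 (0.000248), Pdia4 (0.0213) and Sdf2l1 (0.0258). At the time of the largest difference, the change in KO control lay below that in WT control for Xbp1, Pdia6 and Sdf2l1. It lay above for Calr and Hspa5, while the sign for Pdia4 turned on the TPM scale, where the time of the largest difference may be another. The largest changes of the 2 lines, which can be at different times, did not always have the same sign. For Sdf2l1 and Calr they were 0.13 and -0.13 in WT control, against -0.26 and 0.13 in KO control. At 720 min Calr was called lower in both lines, so its difference in sign does not hold at every time. Without replicate 2 the number was 3 (Xbp1, Calr and Pdia6), where 8.72% of all genes were called. Xbp1 levels were closer at 1440 min, with 48.1 TPM in KO control against 38.2 TPM in WT control, than at 0 min, with 77.6 TPM in KO control against 49.3 TPM in WT control.

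The remaining members changed less over the long course. Pdia6 was lowest at 5760 min in KO control, at 188, 187 and 189.7 TPM against 239.7, 232 and 239 TPM at 0 min, a log2 fold change of -0.26 ± 0.03 with no overlap. In WT control it was at 204, 207 and 205 TPM at 5760 min against 229, 228 and 229 TPM at 0 min, also with no overlap. Pdia4 was lowest at 2880 min in WT control, 113 TPM against 135 TPM at 0 min (log2 fold change -0.14 ± 0.03). Hsp90b1 and Dnajb9 cannot be given one direction. In KO control their largest count-based changes were 0.09 and 0.27, but Hsp90b1 TPM averaged 344 at 2880 min against 404 at 0 min, and limma on log2(TPM + 1) gave -0.23 for Hsp90b1 and -0.27 for Dnajb9. TPM divides by a transcript length that is estimated in each library, and the count fit does not. For the median gene the largest gap between both scales was -0.11, for WT control at 2880 min.

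**Figure D4:**
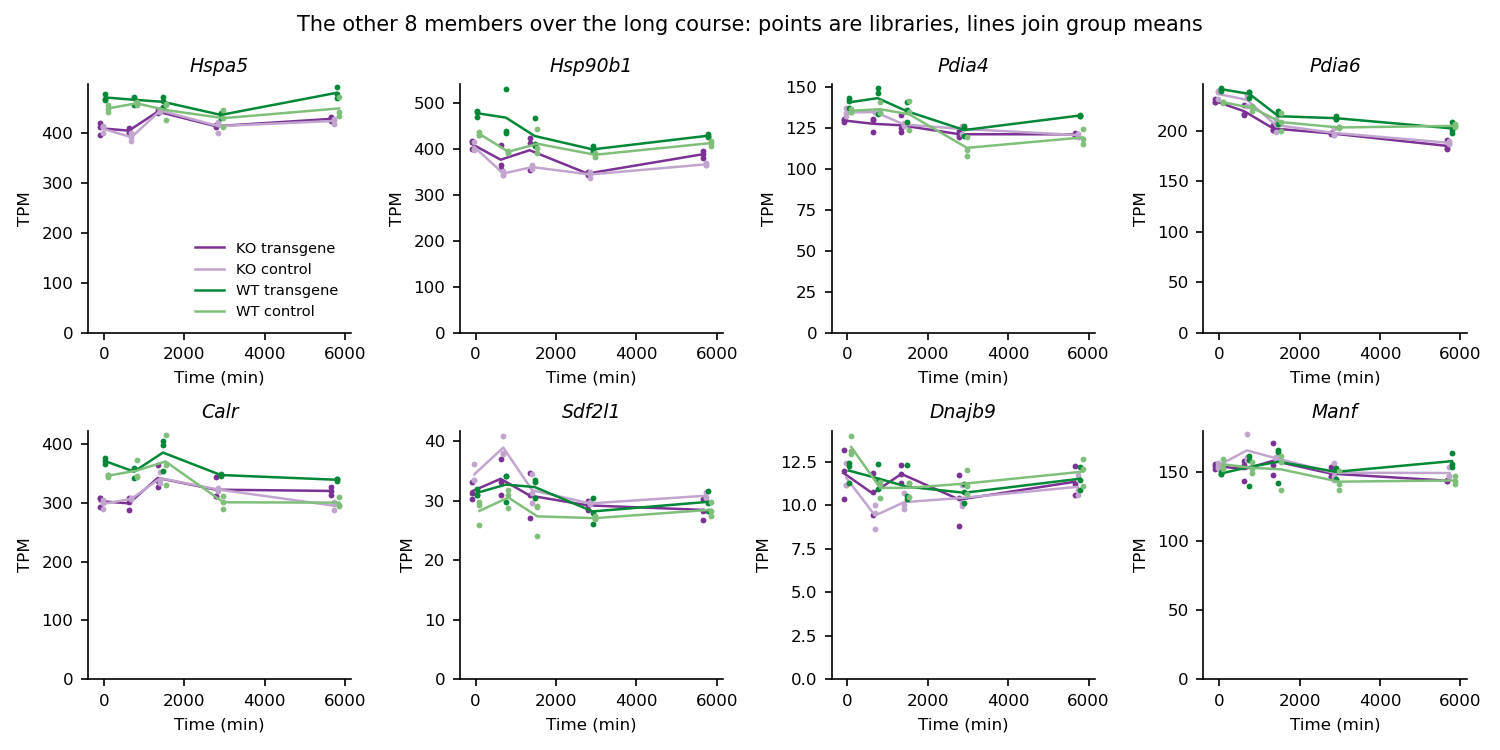
TPM of the 8 members other than Xbp1 and Herpud1 in every library of the long course (points) with the mean of each line (lines), against time in min, for the KO transgene, KO control, WT transgene and WT control lines. Calr peaks at 1440 min in all 4 lines, and Pdia6 declines over time to 185 and 188 TPM in the KO lines at 5760 min.

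The short course looked at the first 330 min in steps of 30 min. In the WT control line Xbp1 and Herpud1 both rose about midway. The 12 libraries from 180 to 330 min had 36.4 to 42.3 TPM of Xbp1 (median 39.4), against 30.8 to 36.3 TPM (median 34.6) in the 12 libraries from 0 to 150 min. Herpud1 was at 4.95 to 7.07 TPM (median 5.69) in the later libraries against 3.32 to 4.75 TPM (median 4.06) in the earlier ones. Neither gene's early and late libraries overlapped, but the split was chosen after the values were seen and has no test of its own. The spline test over time, which does not use it, gave edgeR adjusted p = 5.57e-06 for Xbp1 and 1.56e-12 for Herpud1. These 2 were the only members called in WT control, where 21.8% of all genes tested were. In the WT transgene line the medians of the same periods went up too, from 33.5 to 39.6 TPM for Xbp1 and from 4.22 to 6.28 TPM for Herpud1. In the KO transgene line they went from 40.1 to 38.5 TPM and from 5.52 to 6.39 TPM.

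In the KO control line Xbp1 did not rise. Its 12 libraries from 180 to 330 min had 39.7 to 45.2 TPM (median 41.0), against 40.3 to 50.3 TPM (median 45.6) from 0 to 150 min, and these overlapped. By the spline test, which is of any change over time, edgeR gave adjusted p = 0.000647, and the fitted curve after 0 min averaged 0.18 below its value at 0 min on the log2 scale (log2 change -0.18). This call was lost without replicate 1 (adjusted p = 0.0896). Herpud1 was at 5.50 to 7.47 TPM (median 6.27) in the later libraries against 3.94 to 6.25 TPM (median 5.21) in the earlier ones, and these overlapped too. Here 8 of 10 members were called, 5 without replicate 2, where 13.3% of all genes tested were (7.06% higher, 6.21% lower). The fitted curves of Hspa5, Hsp90b1, Pdia4, Pdia6, Calr, Xbp1 and Manf averaged below their start, by log2 changes of -0.07 (Calr) to -0.18 (Xbp1), and that of Herpud1 above it, at 0.11. The sign for Herpud1 turned without replicate 1, and its call was lost without either KO control library of 180 min. A test of the mean change itself, with 1 coefficient for each line at each time, called 0 of 10 members (0.45% of all genes), and 4 had an unadjusted p under 0.05 by edgeR. Hspa5, for example, had 369.8 to 420.2 TPM (median 386) in the later libraries against 391 to 463 TPM (median 419.9) in the earlier ones. A call in one line and not in the other does not show that the lines differ. The test of that difference, also added after the values were seen, called 2 of 10 members, Xbp1 (edgeR adjusted p = 1.56e-06) and Herpud1 (0.00261), where 4.93% of all genes were called. Herpud1 was lost without replicate 1 and on the TPM scale, and Xbp1 was not lost under any alternative.

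Herpud1 and Xbp1 also had different levels in the 2 courses. At 0 min Herpud1 was at 11.7 to 12.7 TPM in KO control and 11.9 to 12.7 TPM in WT control libraries of the long course, but at 4.70 and 5.49 TPM in KO control and 3.93 and 4.05 TPM in WT control libraries of the short course. The courses are separate experiments, and these differences were not tested.

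The next question was what induced Firre did to these genes. The transgene lines were first compared with their controls at 0 min. Firre was already higher there: in the long course KO transgene libraries averaged 0.895 TPM and KO control libraries 0.390 TPM, and WT transgene libraries averaged 46.1 TPM and WT control libraries 24.2 TPM. So a difference of the line and one of transgene Firre cannot be told apart. The KO values are near the floor, and at 0 min of the short course they overlapped. There KO transgene libraries were at 1.38 and 1.94 TPM and KO control libraries at 1.09 and 1.62 TPM. In the KO transgene line 1 of 10 members passed in the long course (3.54% of all genes tested): Xbp1, at 67.6, 69.0 and 69.2 TPM against 76.8, 77.5 and 78.6 TPM in KO control, groups that did not overlap (log2 fold change -0.17 ± 0.03, edgeR adjusted p = 0.000729). This call was lost without replicate 2. In the WT transgene line Hspa5, Hsp90b1, Pdia6 and Calr passed, all 4 higher, by 0.09 to 0.16 on the log2 scale (13.2% of all genes tested, 7.22% higher), but none did with limma on log2(TPM + 1) and at most 3 when a replicate was left out. At 0 min of the short course 0 of 10 passed in either line (0.161% of all genes in KO transgene and 2.93% in WT transgene) by edgeR, and 3 and 2 had an unadjusted p under 0.05. DESeq2 called 0 in both, and leaving out replicate 1 gave 3 calls in WT transgene (9.11% of all genes).

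The response to Firre was the change since 0 min in a transgene line minus the change in its control. In the long course 1 of 10 members passed in the KO background (11.5% of all genes tested), again Xbp1. Its response at 720, 1440, 2880 and 5760 min was 0.15, 0.24, 0.12 and 0.19 on the log2 scale, with 12 of 12 transgene libraries after 0 min in that direction (edgeR adjusted p = 0.0036 for the F test). In the WT background Xbp1 gave 0.13, 0.22, 0.24 and 0.18 at the same times, also with 12 of 12 libraries (edgeR adjusted p = 0.00499). Within a background all 12 libraries are measured from the same 0 min means, so these tallies are not 12 separate observations. The responses did not differ detectably between backgrounds (edgeR adjusted p = 0.654). Seen as levels, the KO transgene line started 0.17 lower on the log2 scale than its control at 0 min and was at 52.7 TPM against 53.0 TPM in KO control at 5760 min. The WT transgene line was at 46.3 TPM against 49.3 TPM in WT control at 0 min, and at 44.2 TPM against 39.1 TPM at 5760 min. The KO call was lost without replicate 1, without replicate 2 and on the TPM scale, and the WT call without replicate 2 and without replicate 3.

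In the WT background 4 of 10 members passed (9.79% of all genes tested). Besides Xbp1 these were Hsp90b1 and Pdia6, whose largest responses were -0.19 ± 0.04 and -0.16 ± 0.04, both at 5760 min, and Pdia4, 0.09 ± 0.04 at 720 min. Pdia4 was at 0.01 at 2880 and 5760 min. Its response lay below 0 at 1440 min, as the step from 720 min was -0.10 in WT transgene and 0.07 in WT control. Without replicate 3 its largest response was -0.09, which may be at another time than 720 min. Without replicate 2 none of the 4 passed, where 1.68% of all genes tested did. The responses in the KO and WT backgrounds differed for Hsp90b1, Pdia4 and Pdia6 (3 of 10, against 5.32% of all genes; edgeR adjusted p = 0.0316, 0.00865 and 0.0285), but on the TPM scale, without the filter on low counts, without replicate 2 and without replicate 3, 0 of 10 did. Of all genes 1.69%, 4.45%, 1.32% and 1.72% did in those settings, in the same order. On the TPM scale 0 members passed with the KO lines (4.3% of all genes) and 1 with the WT lines (3.88%). During the short course, in which Firre reached 465 TPM in KO transgene and 1162 TPM in WT transgene at 120 min, 0 of 10 members responded in the KO background (1.82% of all genes tested), 0 in the WT background (0.7%), and 0 differed between them (0.0167%) by edgeR. An unadjusted p under 0.05 was reached by 1, 0 and 1 members, and DESeq2 called 0 in each. Averaged over the 11 times after 0 min, the Xbp1 response was 0.01 ± 0.06 with the KO lines and -0.02 ± 0.06 with the WT lines.

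**Figure D5:**
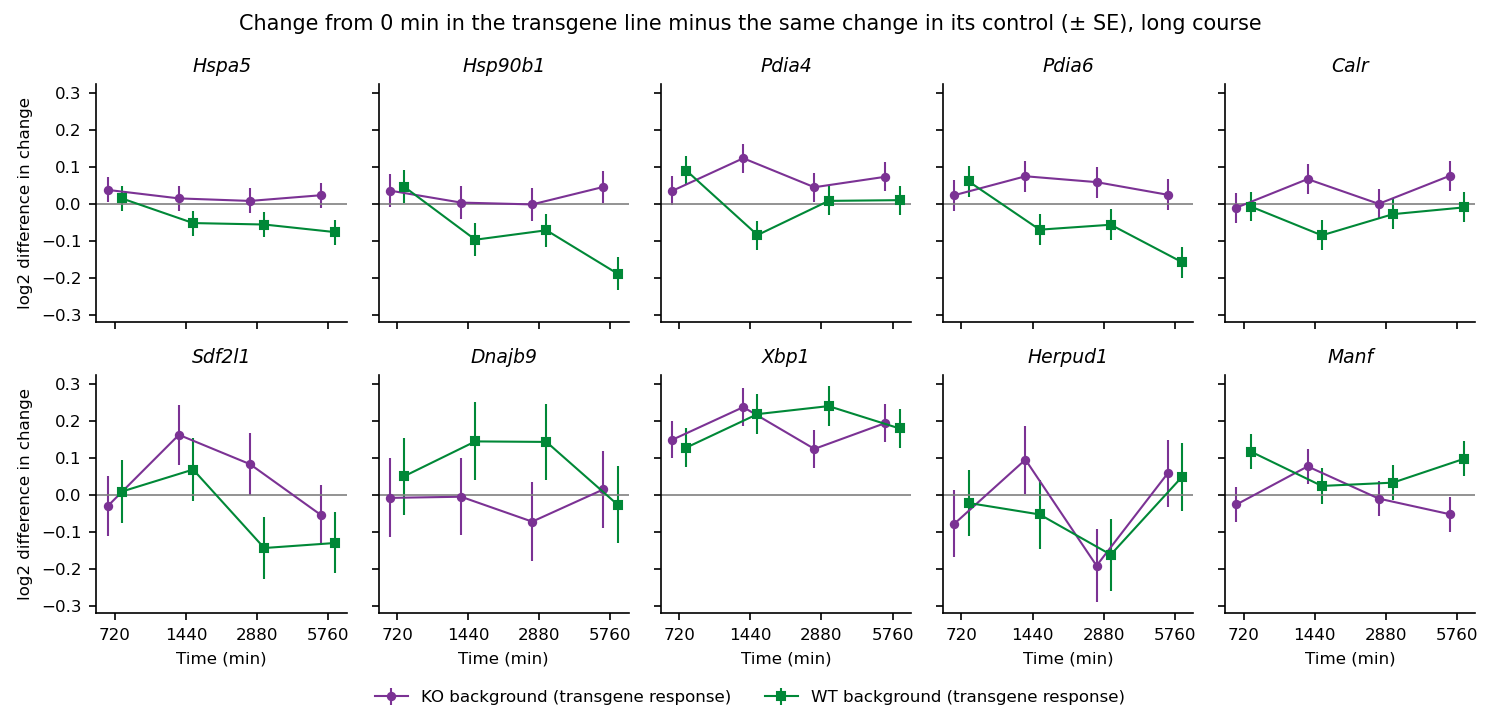
Response of each member to Firre, the log2 change since 0 min in a transgene line minus that in its control line, at 720, 1440, 2880 and 5760 min of the long course, with bars of 1 SE from the edgeR fit, in the KO and WT backgrounds. Xbp1 lies above 0 at all 4 times in both backgrounds, between 0.12 and 0.24.

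Other genes of the pathway were read in the same fits. At 0 min of the long course 10 of 18 other ER chaperones and folding enzymes were higher in KO control than in WT control and 4 were lower, with a median log2 fold change of 0.12 (16.5% of all genes tested were higher and 18.6% lower, with a median of -0.01). Among them were P4hb, a protein disulfide isomerase, at 0.53 ± 0.03, Canx, the membrane lectin chaperone calnexin, at 0.47 ± 0.03, Hyou1, a large ER chaperone, at 0.19 ± 0.03, and Uggt1, which tags misfolded glycoproteins, at -0.18 ± 0.03. Of 15 genes of ER-associated degradation 5 were higher and 1 lower, among them Derl2 at 0.50 ± 0.04 and Edem1 at 0.28 ± 0.04, whose products act in moving and trimming misfolded glycoproteins. Of 16 genes of translocation and glycosylation 5 were higher and 2 lower, with Ssr4 at -0.35 ± 0.04 and Spcs2 at 0.23 ± 0.03.

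The sensors and the PERK arm showed no common direction. Of 8 sensor and processing genes Ern1, which encodes the sensor that splices Xbp1 mRNA, was higher in KO control (0.36 ± 0.08) and Creb3, a membrane-bound transcription factor, lower (-0.57 ± 0.06). Of 10 genes of the PERK arm and the integrated stress response 1 was higher (Trib3, 0.18 ± 0.06) and 3 lower: Asns, asparagine synthetase, at -0.40 ± 0.03, Sesn2 at -0.20 ± 0.04 and Atf4 itself at -0.10 ± 0.03. At 0 min of the short course, where 7.51% of all genes tested passed, 0 of the 18 chaperones did. Of the other lists 1 of the 15 degradation genes (lower) and 1 of the 16 translocation genes (higher) passed. So did 1 of the 8 sensor genes (lower) and 1 of the 10 PERK arm genes (lower).

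Over the short course in WT control, a line in which Xbp1 and Herpud1 rose, 4 of 15 degradation genes passed the spline test upward. None passed with a mean change below 0, and 12.1% of all genes tested passed upward. Among the 4 were Edem3, Edem1 and Syvn1, with mean log2 changes of 0.08, 0.12 and 0.02. The sensor genes Eif2ak3 and Ern1 passed as well (0.09 and 0.18), while of 18 other chaperones 0 passed with a mean change above 0 and 2 with one below. In the response to Firre in the long course, the PERK arm list had 3 members lower and none higher in the KO background (Asns -0.34, Nupr1 -0.56, Sesn2 -0.19; 11.5% of all genes tested passed in either direction), and Asns alone in the WT background (-0.25; 9.79% of all genes). Asns was also the list's leading gene in the comparison of the control lines, at -0.40 in KO control.

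The members did not move as one group. Over the 68 means of a line at a time, centred within line and course, the median Pearson r of the 45 pairs of members was 0.14, with 28 pairs above 0. Hspa5 and Hsp90b1 went together most closely (r = 0.81), followed by Pdia4 and Manf (0.76). Herpud1 ran against Hsp90b1 (-0.58) and Hspa5 (-0.57). The courses differed. In the short course alone (48 means) the median was 0.25, and pairs among Hspa5, Hsp90b1, Pdia4, Pdia6, Calr and Manf had r from 0.60 to 0.94. In the long course alone (20 means) the median was 0.10, and pairs among the same genes ran from -0.47 to 0.73. All these points share libraries, depth and time courses, so the values are a description. Among 8491 genes with a mean CPM (library-scaled count) of at least 10, those most like the mean of the 10 members over the same 68 points were Bub1b (r = 0.79), Kdm4c (0.76) and Nup35 (0.76).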

How the data were processed

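Poly(A) RNA of 156 mouse embryonic stem cell libraries (68 line and time groups) was measured with an unstranded kit, per the labels' protocols. The submitters' processing notes name Salmon 1.5.2 and the mm10 build; the annotation and settings are not given in the sources used here. The authors deposited expected counts per gene and TPM (a level scaled by effective length and library, so not a count). The expected counts were rounded, and 7313 genes without a count were left out. Libraries were grouped by their labels. Each course was filtered (filterByExpr, minimum count 10, minimum total 15), scaled by TMM and fitted over all its libraries with edgeR 4.0.16 in R 4.3.3 (quasi-likelihood, robust). Long course fits used 1 coefficient for each line at each time. Short course changes and responses used a natural cubic spline with 3 degrees of freedom in each line, and other short course values 1 coefficient for each line at each time. A call is a Benjamini-Hochberg adjusted p under 0.05 over all genes tested. Log2 fold changes are from the count fit, ± is the SE, and levels in TPM are the deposited values.

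The 10 members and the gene lists were chosen with earlier results of these data known, and the step from 720 to 1440 min was tested for that reason. All 10 members are named, Firre checks the labels, and from each pathway list at most the 4 genes with the smallest adjusted p in a comparison are named. Alternatives were DESeq2 1.42.0, its size factors, no filter on low counts, a fit on only the lines compared, the replicate number as a block, each replicate left out, the library that stands apart left out, and, chosen after seeing the data, each KO control library of 180 min in the short course left out and limma 3.58.1 on log2(TPM + 1). The fits were tested on simulated counts.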

Additional observations from a re-analysis of the deposited data

Results flagged for a closer look

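Each result here is a test of whether a change differed between 2 lines or backgrounds, with the adjusted p from edgeR over all genes of the course. In the long course the change over time in KO control differed from that in WT control for Xbp1 (4.25e-09), Calr (1.28e-05), Hspa5 (0.000128), Pdia6 (0.000248), Pdia4 (0.0213) and Sdf2l1 (0.0258). In the short course it differed for Xbp1 (1.56e-06) and Herpud1 (0.00261). Xbp1 passed in both courses and under every alternative run for it. The response to Firre in the KO background differed from that in the WT background for Pdia4 (0.00865), Pdia6 (0.0285) and Hsp90b1 (0.0316), by 0.21, 0.18 and 0.23 on the log2 scale at the time of the largest difference. None of these 3 passed with limma on log2(TPM + 1).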

How the results depend on the processing

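Of 226 recomputed counts of members called, 193 stayed within 1.5 times the value reported. The others follow, with the reported value in parentheses. With limma on log2(TPM + 1), an alternative chosen after seeing the data, the count was 0 (4) for WT transgene against WT control at 0 min of the long course, 3 (6) for the step from 720 to 1440 min in WT control, 0 (1) for the response in the KO background, 1 (4) for that in the WT background, 0 (3) for their difference, and 1 (2) for the short course change in KO control minus WT control. Without the filter on low counts it was 2 (4) for WT transgene at 0 min, 3 (5) for the step in WT transgene, 0 (3) for the difference of responses and 1 (2) for KO control against WT control at 0 min of the short course. For that last comparison DESeq2 and the fit on only the lines compared also gave 1 (2), and DESeq2 gave 2 (1) for the response in the KO background.

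Leaving out replicates in turn gave 0 to 1 (1) for KO transgene at 0 min, 0 to 3 (4) for WT transgene at 0 min, 3 to 3 (5) for the step in WT transgene, 3 to 6 (6) for that in WT control, 0 to 1 (1), 0 to 3 (4) and 0 to 2 (3) for the long responses in the KO and WT backgrounds and their difference, and 3 to 6 (6) for the long change in KO control minus WT control. In the short course it gave 1 to 2 (2) for KO control at 0 min, 4 to 7 (7) over all times, 0 to 3 (0) for WT transgene at 0 min, 5 to 7 (8) for the change in KO control and 1 to 3 (2) for that change minus the one in WT control. These short course changes come from the spline fit. The share of all genes called moved as well. In these long course comparisons it was lower without any 1 replicate, for the response in the WT background 1.68% to 9.44% (9.79%). In the short course it moved both ways.

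Signs turned on the TPM scale for Pdia4 (0.0127, KO control against WT control over all times), Hsp90b1 (-0.23) and Dnajb9 (-0.275) in the long change of KO control, Hspa5 (-0.0642) and Hsp90b1 (-0.159) in that of WT control, Pdia4 (-0.0111) in the KO transgene step, Hspa5 (-0.0433), Pdia4 (-0.035) and Manf (-0.0133) in the WT control step, Pdia4 (0.152) in the long change of KO control minus WT control, and Hsp90b1 (0.012) and Manf (-0.0245) in KO control against WT control over all short course times. They turned without 1 replicate for Calr (-0.142 to 0.148, long change in KO control), Pdia4 (-0.0913 to 0.153, response in the WT background), Manf (-0.0267 to 0.149, KO control over all short course times) and Herpud1 (-0.0288 to 0.263, short change in KO control). The cause was not tested.

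The libraries were not treated as paired, because the labels do not say that a replicate number marks a shared culture or day and only 25.8% (long) and 46.7% (short course) of same-numbered pairs correlated above 0.1. Yet 34 of 60 and 76 of 96 libraries correlated best with their own number, a hint from the data of variation shared within a number. With the replicate block 6 members were called for KO control at the long course's 0 min and 9 over all times, as without it. It gave 7 instead of 6 for the long and 3 instead of 2 for the short change of KO control minus WT control, and the same counts otherwise. The fit on only the lines compared has no value for the difference of responses. Herpud1, at as few as 105 counts in a library, is the member that depth limits most.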

Other observations

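Heat shock chaperones, which fold proteins outside the ER, also differed between the control lines at 0 min of the long course, without a common direction. Of 13 genes 3 were higher in KO control and 4 lower, where 16.5% of all genes tested were higher and 18.6% lower. Most of these act in the cytosol, but Hspe1 and Hspd1 encode mitochondrial chaperonins. Hspa4 was at a log2 fold change of 0.39 ± 0.03, Hspa1b at 0.37 ± 0.09, Hsph1 at 0.26 ± 0.03 and Hspe1 at -0.16 ± 0.05. In the long course response to Firre 3 of 13 rose and 1 fell in the KO background (11.5% of all genes passed in either direction), and 2 rose and 2 fell in the WT background (9.79%), with edgeR and an adjusted p under 0.05. Hsph1, a nucleotide exchange factor for cytosolic Hsp70 chaperones, was at 0.19 and Hsp90ab1 at 0.13 to 0.14 in both backgrounds at the time of the largest response. In the short course 0 of 13 responded in either background.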
